A study of Glycine max with 12 samples.

Results

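Leaves of soybean that were heated and short of water at the same time were compared with leaves that were heated alone, to see which transcripts water deficit moves on top of heat. The comparison took the 3 combined stress libraries against the 3 heat stress libraries and every gene with a mean of at least 10 normalized counts over these 6 libraries, which left 32815 of the 55051 genes in the table. All plants were wild type Glycine max of the cultivar Magellan, kept in growth chambers, and leaf RNA was sequenced. The series holds 12 libraries in 4 groups of 3: untreated controls, water deficit, heat stress, and combined stress, the last being drought and heat together. How hot, how dry, for how long and at what hour leaves were taken is not given in the sources used here, nor whether the libraries of a group came from separate plants, so p-values measure the spread between these libraries, which may be technical.

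Leaves short of water usually make abscisic acid and close their stomata, and they build up dehydrins and other late embryogenesis abundant (LEA) proteins, which are hydrophilic and are thought to shield proteins and membranes as cells dry, together with sugars and amino acids that hold water. Heated leaves make heat shock proteins, chaperones that hold or refold damaged proteins, under the control of heat shock factors. Open stomata cool a leaf by evaporation and closed ones do not, so the 2 stresses put opposite demands on a leaf. In whole-leaf RNA, fewer cells of a type and less RNA per cell cannot be told apart.

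The 6 heated libraries held 26077068 to 46186226 reads in genes, the range of the whole series. All 21 photosynthesis genes of the leaf marker list were measured and took 1.80% to 4.12% of the reads. Of 25 nodule and seed marker genes in the table, 21 had no read in any of the 6 libraries, and the 25 together summed to 239.6 to 482 normalized counts in heat and 211 to 382 in combined stress, nearly all from NOD33. Libraries of one treatment were not alike. Heat library 3 correlated with combined libraries 2 and 3 at Pearson's r of 0.94 and 0.93 over the log2 values of all genes tested, above its 0.89 and 0.88 with heat libraries 1 and 2. A clock index, the mean log2 level of 4 morning clock genes minus that of 11 evening clock genes, was -1.94, -2.17 and 1.84 in the heat libraries and -2.99, 1.15 and 1.01 in the combined libraries, against -0.72 to -1.56 in the 6 unheated ones. Heat library 3 and combined libraries 2 and 3 were thus on one side of that index and the other 9 libraries on the opposite side, and the part of this split in the results was not tested beyond the fits given below. The median spread of a gene within a group was 0.37 (log2 SD) in heat and 0.34 in combined stress, against 0.25 in control and 0.27 in water deficit.

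Between the heat and the combined libraries 128 genes were called, of which 85 rose and 43 fell in combined stress (limma, adjusted p under 0.05, the 6 libraries alone). That is 0.39% of the genes tested, 0.259% higher and 0.131% lower. The changes were large: 76 of the 85 rose and 28 of the 43 fell by at least 4-fold, and 26 rose and 7 fell by at least 16-fold. The median log2 change was 2.95 among genes that rose and -2.38 among those that fell, while the median of all genes tested was -0.01. All 128 had no overlap between the 3 heat and the 3 combined libraries, which was also true of 3037 genes in the higher direction (9.25% of those tested) and 3349 in the lower (10.2%). The 85 genes together held 0.0679%, 0.0652% and 0.0739% of the reads in the heat libraries and 0.623%, 0.460% and 0.591% in the combined ones, and the 43 went from 0.359%, 0.373% and 0.265% to 0.0620%, 0.0906% and 0.0697%. Since the genes were chosen on this contrast, these shares describe their weight and test nothing.

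**Figure D1:**
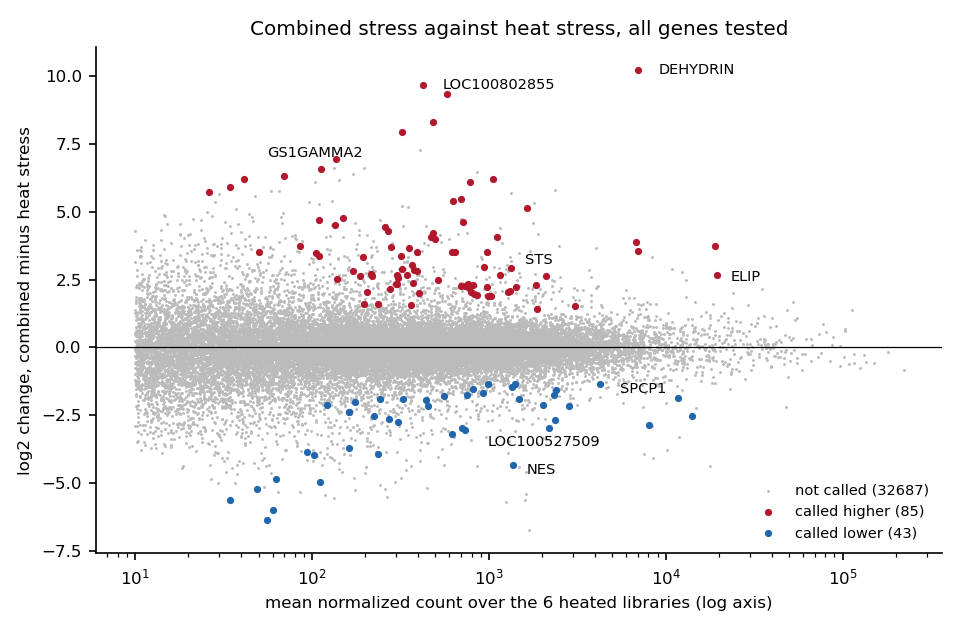
Each point is a gene, with its mean normalized count over the 6 heated libraries on a log axis and its log2 change, combined minus heat stress, on the vertical axis. The 85 genes called higher (red) reach a log2 change of 10.24 at DEHYDRIN and the 43 called lower (blue) include NES, TIP1-8 (LOC100527509) and SPCP1, among 32687 genes that were not called (grey).

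The calls stood close to the threshold, 83 of the 128 having an adjusted p between 0.04 and 0.05. Their number differed with the fit and with the libraries in it. Fitted with all 12 libraries, the comparison gave 795 genes higher (2.42%) and 941 lower (2.87%), including 127 of the 128. That fit pools the spread of all 4 groups, which was smaller in the unheated ones, so its error is too small for this comparison. Its counts are given below as a description and add no support to the calls. Without combined library 1 no gene passed, without combined library 2 or 3 there were 45 and 3, without heat library 1 or 2 there were 7 and 8, and without heat library 3 there were 2786, which held all 128. With the clock index as a covariate 831 genes passed, again with all 128. At an unadjusted p under 0.05, 4907 genes differed. Of the 128 genes, 18 carry a name in the table and 5 more could be named through RefSeq gene IDs or synonyms, which left 105 loci with an identifier alone. RefSeq lists 122 of them as protein-coding and 2 as long noncoding.

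Dehydrins and a seed maturation protein were among the named genes that rose. DEHYDRIN, a LEA protein of the D-11 class, read 1.26, 13.9 and 17.0 normalized counts in the heat libraries and 28753, 3982 and 9348 in the combined ones (log2 change 10.24, SE 0.93, adjusted p = 0.0194). In controls it read 15.0, 7.62 and 26.1 and under water deficit alone 1220.5, 137 and 7872, so combined libraries 1 and 3 lay above every library of the other groups and combined library 2 below the highest water deficit library. MAT1, another dehydrin of the same class, went from 15.1, 26.0 and 14.3 to 2873, 357 and 480.3 (log2 change 5.39, SE 0.75, adjusted p = 0.0465), with combined library 1 far above the other two. PM35, a seed maturation protein, was at 0, 0 and 5.36 in heat and 325, 92.0 and 401 in combined stress (log2 change 6.96, SE 0.93, adjusted p = 0.0442). The list of LEA, dehydrin and seed maturation genes had 18 of its 32 members above the level filter. Of the 18, 3 rose, 0 fell and 15 did not pass the test (all genes tested: 0.259% higher, 0.131% lower). The 12-library fit called 7 higher and 0 lower (all genes tested: 2.42% and 2.87%). The median log2 change of the list was 4.06, or 3.80 with the 2 members at 0 reads in heat set to the bound that 3 reads per library allow. Of the 18, 16 were above 0, where the median of all genes tested was -0.01. Without heat library 3 the list median was 3.90. In this list and the others, a low gene enters the test through the group where it is high. The count of members above the filter, their median and the 16 above 0 are therefore not evidence. PM37, the member with the highest mean, read 12481, 13166 and 28307 in heat and 21653, 7649 and 11182 in combined stress and did not pass (adjusted p = 0.714).

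**Figure D2:**
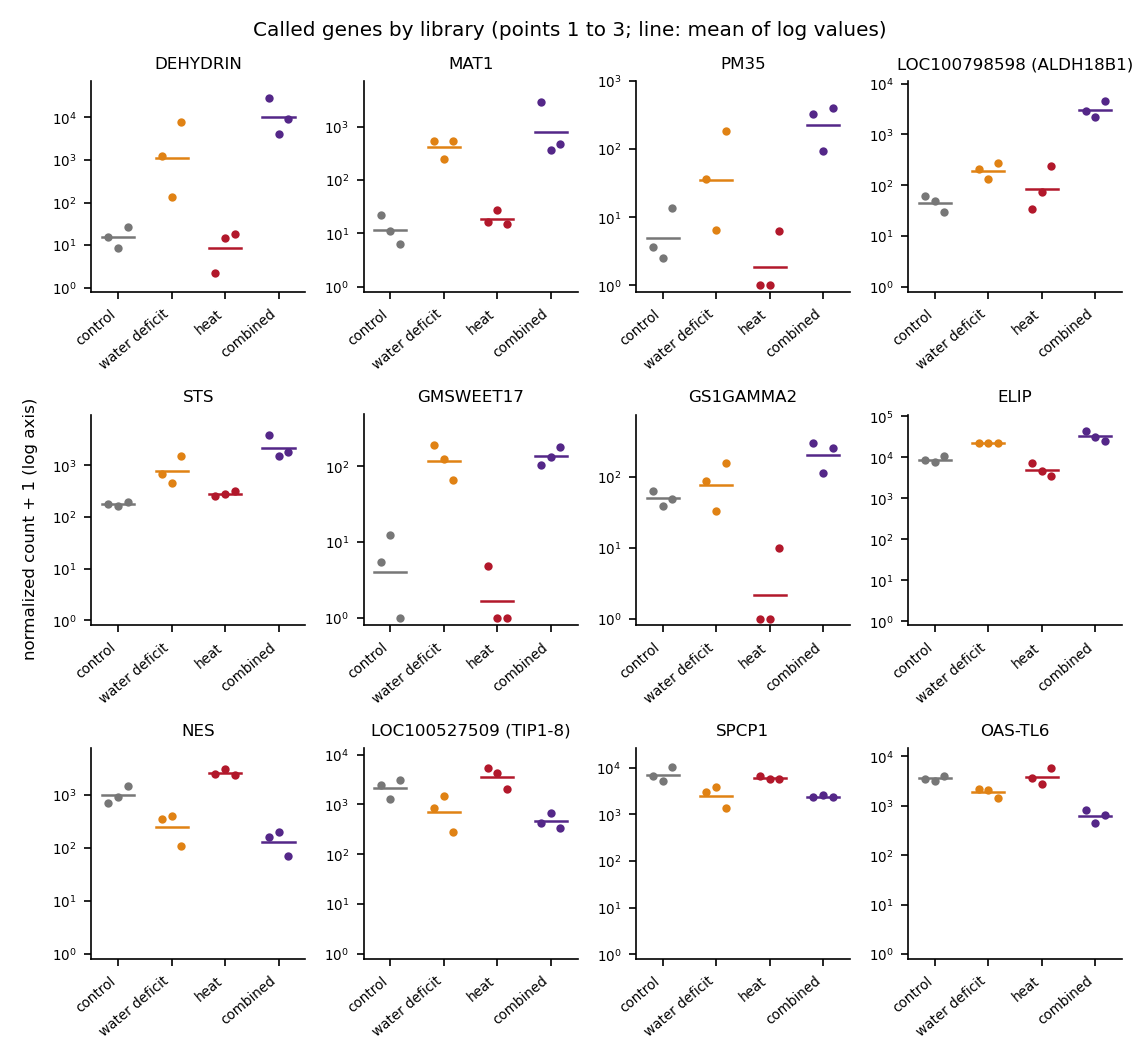
Normalized counts plus 1 on log axes for 12 called genes, each point a library (1 to 3 from left to right) and each line the mean of the log values of a group. In the upper 8 panels the 3 combined libraries lie above the 3 heat libraries, and in NES, TIP1-8, SPCP1 and OAS-TL6 they lie below them.

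A gene of proline synthesis and a gene of protective sugars rose. LOC100798598, which RefSeq names ALDH18B1, belongs to the family of delta-1-pyrroline-5-carboxylate synthases, the enzymes that open the path to proline. It read 32.8, 74.4 and 241 in heat and 2838, 2189.7 and 4511 in combined stress (log2 change 5.16, SE 0.66, adjusted p = 0.0412), and 61.7, 48.0 and 29.3 and 208, 130.0 and 269 in control and water deficit. STS, stachyose synthase, which lengthens raffinose to stachyose, went from 259, 271 and 323 to 3831, 1477 and 1840.3 (log2 change 2.94, SE 0.35, adjusted p = 0.0357). Every combined library of STS was above every heat library, as in every called gene that rose, and combined library 1 was the highest. Galactinol synthase (GOLS), which makes the galactosyl donor of that path and was picked after its values were seen, read 42.9, 133 and 73.2 against 4804, 1249 and 672 and just missed the threshold (log2 change 4.39, SE 0.72, adjusted p = 0.0637). MIPS4, which makes the inositol precursor, had the highest mean of the list and differed widely between libraries of a group. It read 3408, 5301 and 1049 in heat and 19994, 1223 and 160.1 in combined stress (adjusted p = 0.853), while water deficit without heat took it from 9877, 7751 and 4801 to 56632, 39787 and 48503 (log2 change 2.74, adjusted p = 0.00708). Of the 8 osmolyte genes tested, 1 rose and 0 fell (all genes tested: 0.259% higher, 0.131% lower). Their median log2 change was 0.21 and ran from 0.05 to 0.67 with 1 library left out. LOC100798598 was not in that list, which had been formed from symbols.

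The lists of sugar transport and nitrogen handling each had a member that rose. GMSWEET17, of the SWEET family of sugar transporters, had 3 reads in all in the heat libraries and read 102, 133 and 180.1 in combined stress (adjusted p = 0.0383), a ratio of 138 with a 95% counting interval of 47.0 to 672. In controls it read 4.41, 11.4 and 0 and under water deficit alone 191, 122 and 64.7, so its combined stress libraries lay within the range of the water deficit ones. The other 19 SWEET genes tested did not pass. Of the 20, 16 had a log2 change above 0 and the median was 0.96. GMSWEET17 passed the level filter through combined stress alone, so, as in the LEA list, this count and median are not evidence. The 12-library fit called 4 SWEET genes higher and 0 lower (all genes tested: 2.42% and 2.87%). GMSWEET15, the member with the highest mean, read 3326, 3051 and 6240.1 against 10797, 5351 and 13049 (adjusted p = 0.257). GS1GAMMA2, a cytosolic glutamine synthetase, which fixes ammonium into glutamine, read 0, 0 and 8.93 in heat and 301, 112 and 252 in combined stress (log2 change 6.58, SE 0.98, adjusted p = 0.049). Its control libraries read 62.6, 38.1 and 48.1, above all 3 heat libraries. Among 28 nitrogen genes tested it was the one that rose and 0 fell (all genes tested: 0.259% higher, 0.131% lower), with a median of 0.00. The asparagine synthetases AS2 and AS1, picked after their values were seen, read 0, 1.86 and 25.9 against 271, 824 and 1316 and 15.1, 146 and 77.7 against 7589, 691 and 2259.7 (adjusted p = 0.0607 and 0.0891). GM-ASNASE1, an asparaginase, which breaks asparagine down, had the highest mean of the list and read 92927, 55788 and 84845 against 27962, 14422 and 11136 (log2 change -2.20, SE 0.49, adjusted p = 0.112), with no overlap between the groups.

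Some called genes outside the rule for naming were picked after their values were seen, for their known roles. ELIP, an early light-induced protein of the thylakoid that is linked to protection from excess light, went from 7425, 4797 and 3593 in heat to 44688, 31127 and 24787 in combined stress (log2 change 2.69, SE 0.38, adjusted p = 0.0465), and from 8599, 7557 and 10866 to 22088, 22288 and 21996 without heat. PPCK1, the kinase that phosphorylates phosphoenolpyruvate carboxylase, read 348, 542 and 396 against 1339, 1365 and 2193 (log2 change 1.91, SE 0.27, adjusted p = 0.0465). It read 292, 243 and 420.5 in control and 296, 328 and 475 in water deficit (adjusted p = 0.724 for water deficit minus control). HDL57, a homeodomain-leucine zipper factor, read 279, 283 and 263 against 1532, 993 and 1290.4 (log2 change 2.18, SE 0.22, adjusted p = 0.023). MATE, a transporter of the multidrug and toxin extrusion family, read 213, 198 and 348 against 1099, 1112 and 1638 (log2 change 2.36, SE 0.29, adjusted p = 0.0364). LOC100305602, named GASA27 after the gibberellin-stimulated peptides, read 259, 193 and 198 against 1555, 1684 and 1778 (log2 change 2.95, SE 0.20, adjusted p = 0.00952). LOC100807165, named SPL9D, an SBP-box factor, read 93.3, 112 and 80.4 against 776, 349 and 414 (adjusted p = 0.0465).

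Of the 12 largest increases among called genes with a mean of at least 100, 7 were at loci that the sources used here do not name. LOC100802855 had no read in the heat and control libraries and read 782, 599.8 and 1167 in combined stress, at least 276-fold higher against a floor of 3 reads per library, with the smallest adjusted p of all genes (0.00152). It read 46.7, 20.1 and 199 under water deficit alone. LOC100790115 went from 0, 0 and 3.57 to 1648, 689 and 1167 (log2 change 9.37, SE 0.69, adjusted p = 0.00997), and LOC102662292 from 0, 2.79 and 3.57 to 763, 546 and 616 (log2 change 7.94, SE 0.62, adjusted p = 0.0127). In both genes every combined library was above 500 and every heat library below 5. LOC100779239 was uneven, with 2 reads in all in heat and 56.2, 2064 and 783 normalized counts in combined stress (adjusted p = 0.0499), a ratio of 1441 with a counting interval of 399 to 11907.5 that leaves out the spread between libraries. LOC100812834 read 7.57, 21.4 and 69.7 against 3587, 858 and 1767, and LOC100809388 10.1, 20.4 and 35.7 against 848, 1298 and 2510.3 (adjusted p = 0.0412 and 0.0186). LOC111255647 differed from these in its unheated libraries, where it read 1.76, 0 and 0 in control and 1.87, 2.75 and 2.66 in water deficit, then 24.0, 49.3 and 19.6 in heat and 1174, 1128 and 1783 in combined stress (log2 change 5.49, SE 0.39, adjusted p = 0.00952). Besides LOC100802855, 3 called genes had no read in any heat library: LOC100800376, LOC100792379 and LOC100819278 reached at least 17.0-fold, 22.4-fold and 26.9-fold.

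One heat shock gene rose, HSP6834-A, which the list of large chaperones took in by its symbol. The sources used here do not give the size class of HSP6834-A, so it may belong with the small heat shock proteins. Its normalized counts were 54.2, 197 and 84.8 in heat and 902, 1219 and 1274 in combined stress (log2 change 3.52, SE 0.45, adjusted p = 0.0412). It read 7.05, 6.10 and 15.7 in control and 10.3, 2.75 and 12.4 in water deficit, so water deficit without heat left it near its control level (log2 change -0.25, adjusted p = 0.879). HSP70, an ATP-driven refolding chaperone, read 396, 839 and 1082 against 3331, 3689 and 4742 and missed the threshold (log2 change 2.44, SE 0.37, adjusted p = 0.0531). Of the 12 genes in the list of large heat shock proteins and co-chaperones, 1 rose and 0 fell (all genes tested: 0.259% higher, 0.131% lower). The median log2 change was 0.31. DNAJ, a co-chaperone with the highest mean, read 30985, 23503 and 7164 against 21946, 5506 and 6682 (adjusted p = 0.587).

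No member of the list of small heat shock proteins, the class that binds unfolded proteins without ATP, passed the test. HSP6834-A, of unknown size class, is not in that list. Of 9, 0 rose and 0 fell (all genes tested: 0.259% higher, 0.131% lower). The 12-library fit called 2 higher and 0 lower (all genes tested: 2.42% and 2.87%). All 9 had a log2 change above 0, with a median of 2.75 that was 1.66 without heat library 3, and 6 of the 9 had no overlap between the groups (9.25% of all genes tested had none in that direction). Their summed normalized counts overlapped, at 6162, 9482 and 3339 in heat and 31738, 7365 and 7409 in combined stress. Their mean log2 levels did not, at 7.01, 8.11 and 6.08 against 9.69, 8.88 and 9.08. HSP17.3-B read 132, 392 and 67.0 in heat and 850.0, 452 and 697 in combined stress (adjusted p = 0.18), and HSP22.5 20.2, 54.8 and 5.36 against 312, 144 and 212 (adjusted p = 0.112). HSP17.5-M, lowest among the combined libraries in library 1, was at 32.8, 63.2 and 76.8 in heat against 128, 651 and 732 in combined stress (adjusted p = 0.132). HSP23.9 had the highest mean and was carried by combined library 1, at 3187, 4335 and 1473 against 13859, 1924 and 1723 (adjusted p = 0.852). Apart from HSP23.9, the examples of this paragraph, and HSP70 above, were picked after their values were seen. Under water deficit alone 0 of the 9 were called higher and 1 lower (all genes tested: 1.87% higher, 2.06% lower). With so few genes, a lack of calls says little. The lower one was HSP17.5-E, at 126, 142 and 218 in control and 42.0, 35.7 and 51.4 in water deficit (log2 change -1.86, adjusted p = 0.0154). Among 34 heat shock factors none was called (all genes tested: 0.39%) and the median was -0.02. The member with the highest mean, GMHSF-08, read 3158, 3587 and 213 against 14175, 515 and 531 (adjusted p = 0.959).

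**Figure D3:**
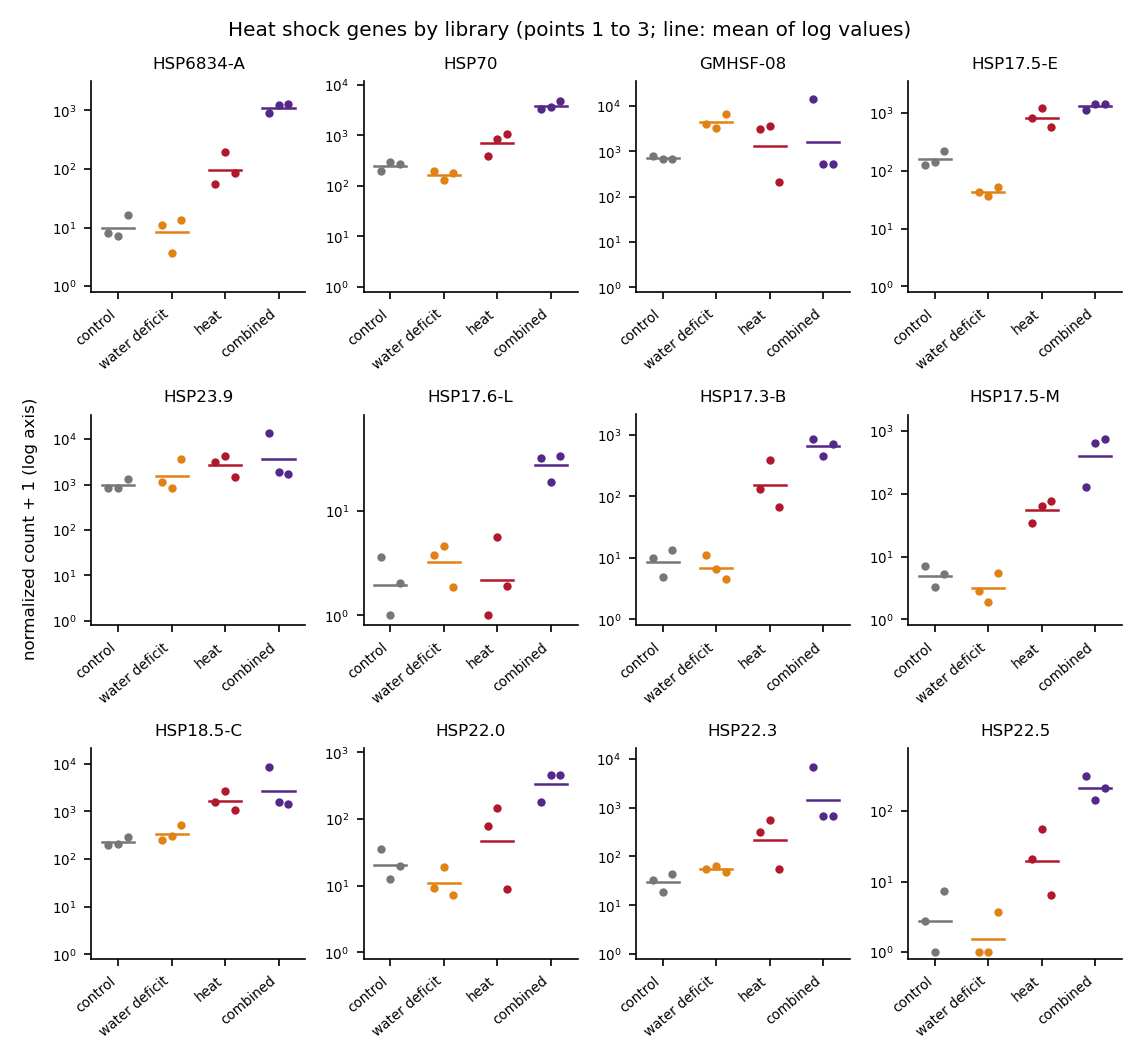
Normalized counts plus 1 on log axes for 12 heat shock genes in the 4 groups, each point a library and each line the mean of the log values. HSP6834-A passed the test between heat and combined stress, the other 11 did not, and HSP18.5-C, HSP22.3, HSP23.9 and GMHSF-08 show combined library 1 far above the other two.

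NES, a nerolidol synthase that RefSeq also lists as the terpene synthase GmTPS18, made the largest fall of a gene with a name and a mean of at least 100. It makes nerolidol, a precursor of volatile terpenes. The heat libraries read 2411, 3015 and 2382 and the combined libraries 158, 198 and 68.0, a fall by 4.32 on the log2 scale (SE 0.39, adjusted p = 0.0186). In controls it read 692, 894 and 1467 and under water deficit 349, 389.9 and 108, so every combined library lay below every control library and every heat library above. CYP76O2, a cytochrome P450 of the CYP76 family taken up here for its name, had 193 reads in all in the heat libraries and 1 in the combined ones (adjusted p = 0.048), a ratio of 237 with a counting interval of 42.0 to 9400.3.

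Both water channels that fell belong to the tonoplast intrinsic proteins, which let water across the vacuolar membrane. TIP1-8 (LOC100527509) read 5431, 4279.8 and 1998 in heat and 429.5, 681 and 339 in combined stress (log2 change -2.96, SE 0.41, adjusted p = 0.0465). SPCP1, with the synonym GmTIP1;7, read 6664, 5879 and 5688 against 2357, 2546 and 2326 (log2 change -1.33, SE 0.19, adjusted p = 0.0465), and in both channels the groups did not overlap. The lack of overlap held for every called gene. SPCP1 was the one named called gene that the 12-library fit did not call (adjusted p = 0.0505). Of 45 aquaporins tested 0 rose and 2 fell (all genes tested: 0.259% higher, 0.131% lower). The median log2 change was -0.35, or 0.04 without combined library 3. The member with the highest mean, LOC100780145 of the plasma membrane class (PIP1-7), read 9281, 8348 and 23982 against 27747, 19549 and 29284 (log2 change 1.03, adjusted p = 0.354), and 19 of the 45 were above 0, so the family did not move as one.

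OAS-TL6, an O-acetylserine (thiol) lyase, which makes cysteine, fell from 3664, 2715 and 5925 to 816, 439 and 645 (log2 change -2.66, SE 0.35, adjusted p = 0.0416). GMIQD67, a calmodulin-binding protein of the IQD family also outside the naming rule, fell from 1768, 1294 and 1181 to 477, 374 and 469 (log2 change -1.67, SE 0.23, adjusted p = 0.0454). Among loci with no name, LOC100792229 showed the largest decrease by the rule, from 249.7, 316 and 80.4 to 3.30, 13.3 and 2.4 (log2 change -4.97, SE 0.75, adjusted p = 0.0499), and it was as low under water deficit alone, at 7.46, 3.66 and 0.89. LOC100786411 went from 12419, 14944 and 14782 to 1414, 3495 and 1492 (log2 change -2.85, SE 0.37, adjusted p = 0.0416). LOC102662475 fell by 3.19 under heat and by 4.82 without it, from 1801, 2616 and 1911 in control to 75.6, 57.7 and 87.7 in water deficit, with an adjusted p of 0.023 and 0.00034. The remaining unnamed loci of the rule, LOC102659655, LOC100809502, LOC100792087, LOC100808231, LOC100798817 and LOC100813310, had log2 changes of -3.97, -3.93, -3.72, -3.06, -2.95 and -2.75. In each the groups did not overlap, which the rule required.

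The lists of NAC, DREB and ERF, and bZIP factors each had 1 called member, where 0.39% of all genes tested were called. The called factors HDL57 and SPL9D, given above, belong to none of the lists. NAC3, of the NAC family, which is known for stress and senescence factors, read 347, 476 and 424 in heat and 1187, 1518 and 2018 in combined stress (log2 change 1.90, SE 0.25, adjusted p = 0.0427). Of 38 NAC genes 1 rose and 0 fell, 28 were above 0 and the median was 0.94. The 12-library fit called 5 NAC genes higher and 1 lower (all genes tested: 2.42% and 2.87%). NAC2, with the highest mean, read 2744, 3204 and 1171 against 6144, 2502 and 2317 (adjusted p = 0.61). RAV1 (LOC100776987), of the AP2/B3 type and counted with the 20 DREB and ERF factors, was the member of that list that fell, from 747, 666 and 695 to 148, 187 and 212 (log2 change -1.95, SE 0.22, adjusted p = 0.0305). BZIP80 was the one called among 98 bZIP factors and fell from 518, 630.1 and 412 to 133, 157 and 122 (log2 change -1.90, SE 0.25, adjusted p = 0.0421). The medians of these 2 lists were 0.10 and -0.02, and their members with the highest mean, DREB3 and BZIP126, had log2 changes of 0.11 and 0.20 (adjusted p = 0.894 and 0.706).

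None of 60 WRKY factors was called, where 0.39% of all genes tested were, and the median was -0.14. Fitted with 12 libraries, 0 were higher and 7 lower (all genes tested: 2.42% and 2.87%). WRKY57, with the highest mean in a family tied to defence, read 4406, 6193 and 6866 against 2173, 1426 and 1066 (log2 change -1.94, SE 0.31, adjusted p = 0.0613). None of 60 MYB factors was called either, the median being -0.08, and MYB175 read 7418, 6491 and 7738 against 14630.4, 7225 and 9138 (adjusted p = 0.538).

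Abscisic acid genes gave no call among the 8 tested, with a median of -0.04. As 0.39% of all genes tested were called, a lack of calls in so short a list says little. ZEP, zeaxanthin epoxidase, which starts abscisic acid synthesis, read 10926, 8968 and 25236 against 15542, 21579.7 and 20470.4 (adjusted p = 0.639). GMCYP707A1A, of the hydroxylase family that breaks abscisic acid down, read 13.9, 22.3 and 14.3 against 78.5, 74.6 and 86.5 without passing (log2 change 2.21, SE 0.40, adjusted p = 0.0833), and under water deficit alone it was higher by a log2 change of 2.61 (adjusted p = 0.027). It was picked after its values were seen.

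The other lists had no called member, where 0.39% of all genes tested were called. The 12-library fit called 2.42% of all genes tested higher and 2.87% lower. In lists above and below, its calls higher and lower were 3 and 5 for bZIP, 3 and 3 for MYB and 2 and 4 for aquaporins. They were 4 and 3 for flavonoid enzymes and 3 and 2 for nitrogen genes. Photosynthesis and cyclophilins had 1 and 2, osmolytes and large chaperones 2 and 0. DREB and ERF factors had 0 and 2, and glyoxalases 4 and 0. Heat shock factors, abscisic acid, auxin and gibberellin, and phosphate signalling had 1 and 1 each. Lists not given with such counts had at most 1 call. Fatty acid desaturases, which set how fluid membranes are, had a median of -0.80 over 20 genes, 2 of them above 0, which was -1.2 without heat library 3 and -0.54 without combined library 3, the 12-library fit calling 0 higher and 3 lower, and FAD2-2 read 38279.7, 47282 and 12455 against 28891, 8596 and 3717 (adjusted p = 0.421). Genes of chlorophyll breakdown and leaf senescence had a median of 0.57 over 18 genes, 14 of them above 0, with 3 higher and 0 lower in the 12-library fit. With the highest mean among them, the vacuolar protease VPE2 read 5053, 3056 and 8176 against 9615, 7141 and 15201 (adjusted p = 0.327). Glyoxalases, which detoxify methylglyoxal, had a median of 0.21 over 28 genes, and GMGLYI-23 a log2 change of 0.58 (adjusted p = 0.449). Antioxidant enzymes and glutathione transferases had a median of 0.27 over 70 genes, 51 of them above 0, and the catalase CAT4 read 65353, 61676 and 106320.0 against 112541, 94288 and 89839.8 (adjusted p = 0.778).

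Photosynthesis genes had a median of -0.29 over 21 genes, and the light-harvesting gene CAB3 (LOC100805310) read 271418, 210980.0 and 372077 against 203452, 136555 and 132467 (adjusted p = 0.65). Cell wall loosening genes had a median of -0.64 over 11 genes that was -2.10 without heat library 3 and -0.24 without heat library 1, and XET1, a xyloglucan-modifying enzyme, a log2 change of 0.63 (adjusted p = 0.535). Vegetative storage proteins and lipoxygenases had a median of -0.33 over 16 genes, and the lipoxygenase VLXB read 39049, 50448 and 114534 against 92521, 105153 and 79056 (adjusted p = 0.681). The medians were 0.09 for 53 flavonoid and isoflavonoid enzymes, 0.13 for 42 auxin and gibberellin genes, -0.16 for 52 cyclophilins and -0.12 for 44 phosphate signalling genes. Their members with the highest mean, CHR2 (LOC100786750), ARF, GMCYP2 and GMPHT1, had log2 changes of 0.65, 0.46, -0.47 and 0.22, with adjusted p of 0.359, 0.766, 0.799 and 0.821. Morning and evening clock genes had medians of -0.10 (4 genes) and -0.29 (11 genes). LCL1, of the morning, read 1429, 1097 and 6104 in heat and 556, 3612 and 3019 in combined stress, far apart within each group. PRR3B (LOC100803462), of the evening list, read 33464, 31116 and 17259.5 in heat and 9231, 11729 and 10553 in combined stress, where its libraries lay close together and below all 3 heat libraries (log2 change -1.33, adjusted p = 0.16, and 0.0295 in the 12-library fit). With 1 library left out at a time, the median of 13 of the 28 lists changed sign in at least 1 of the 6 fits and that of 15 did not. The sign changed in 6 lists without heat library 3, 6 without heat library 2, 3 without heat library 1, and 4, 5 and 3 without combined library 1, 2 and 3. The medians that passed 0 in this way ran from -0.51 to 0.11 for photosynthesis, -0.94 to 0.27 for storage proteins and lipoxygenases, -0.17 to 0.79 for large chaperones and -0.66 to 0.90 for morning clock genes. They ran from -0.48 to 0.04 for aquaporins and from -0.52 to 0.01 for nodule and seed markers. In the other 7 lists, abscisic acid, heat shock factors, DREB and ERF factors, bZIP factors, flavonoid enzymes, auxin and gibberellin genes and nitrogen genes, the medians stayed between -0.24 and 0.25.

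**Figure D4:**
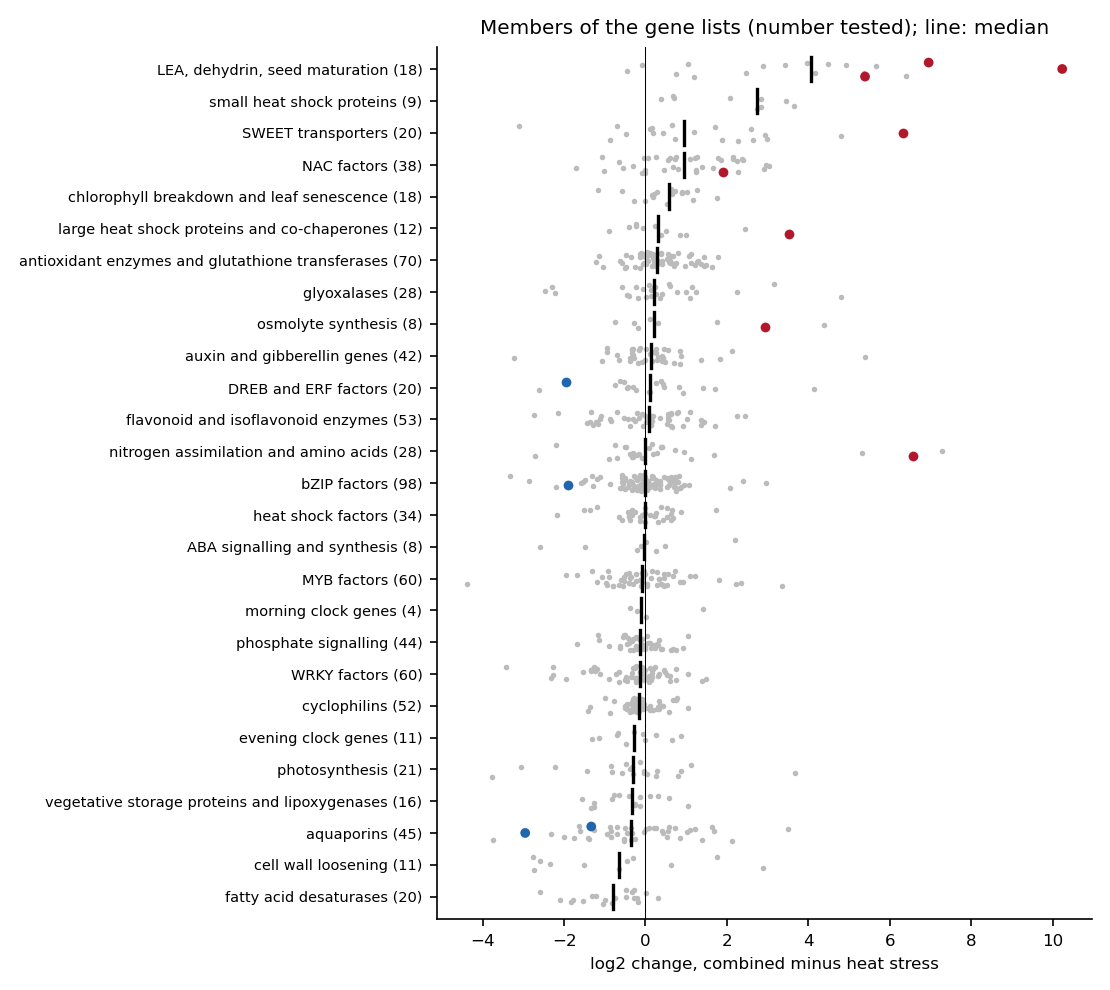
Log2 change, combined minus heat stress, of every tested member of 27 gene lists, one row per list with the number tested in brackets and a black line at the median. Red and blue points passed the test upward and downward, and the LEA and dehydrin row (median 4.06) and the small heat shock protein row (median 2.75) lie farthest from 0. The LEA row holds members without a read in heat that passed the level filter through combined stress alone, so its median is not evidence.

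The unheated pair of groups shares no library with the heated pair, so water deficit minus control can be set beside these changes. On its own 6 libraries it gave 614 genes higher (1.87%) and 675 lower (2.06%). Of the 85 genes that rose under heat, 82 had a log2 change above 0 without heat and 49 were called higher there, none lower, against 51.7% of all genes tested above 0. Of the 43 that fell, 43 were below 0 and 21 were called lower, none higher, against 48.3% of all genes below 0. The 70 genes called in both comparisons in the same direction were 54.7% of the 128 and 5.43% of the 1289 called without heat. Of those 1289 genes, 84.3% had the same sign under heat, against 62.6% of all genes tested. The median log2 change of the 85 was 2.95 with heat and 1.77 without, and of the 43 it was -2.38 and -1.51. The change was larger under heat in 80 and 39 of them, but they were picked on that contrast, so these counts are a description.

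**Figure D5:**
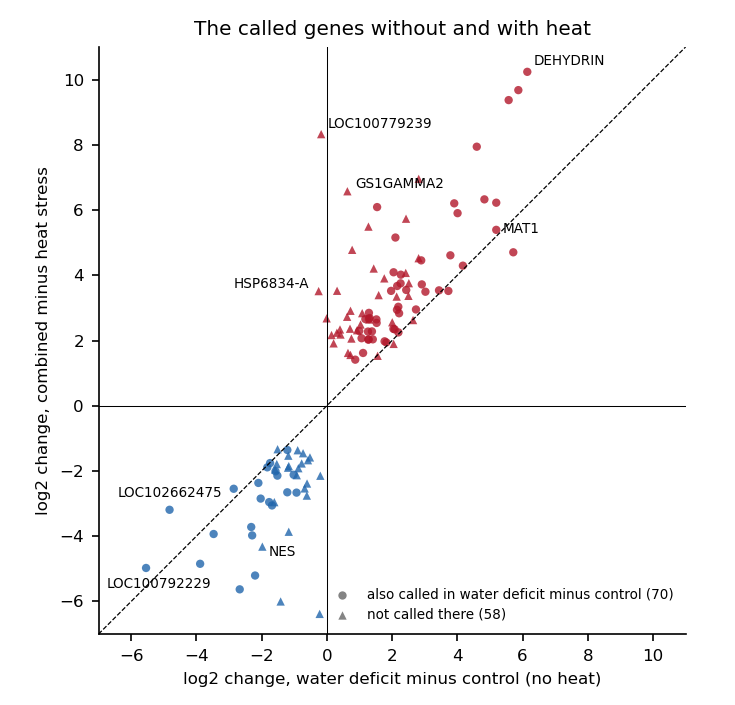
The 128 called genes by log2 change of water deficit minus control (horizontal) and combined minus heat stress (vertical), with a dashed line where both are equal. Circles mark the 70 genes also called without heat, triangles the 58 that were not, and 125 of the points have the same sign in both comparisons.

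The 3 exceptions in sign were LOC100779239, HSP6834-A and LOC100526893, with log2 changes of -0.17, -0.25 and -0.01 without heat, all not called there. Whether water deficit acts differently with and without heat was tested as the interaction over all 12 libraries. No gene passed in limma (smallest adjusted p = 0.166, with 3101 genes at an unadjusted p under 0.05), none passed in edgeR and 261 did in DESeq2, so no gene is named as responding to water deficit under heat alone. The 3 largest interaction values among called genes with a mean of at least 100 were 8.50 in LOC100779239, 5.95 in GS1GAMMA2 and 4.55 in LOC100809388 (adjusted p = 0.355, 0.344 and 0.218). The 3 smallest were -2.34 in NES, -2.14 in LOC100813310 and -1.95 in LOC100788896 (adjusted p = 0.412, 0.344 and 0.332). Without heat library 3, 1614 genes passed the interaction. Many soybean genes have close duplicates, and the sources used here do not say how reads shared by duplicates, or by genes on opposite strands, were counted, which leaves the values of single family members uncertain.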

How the data were processed

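Leaf RNA was sequenced in 12 libraries, 3 in each of 4 groups, and the 6 heated ones were compared. The authors deposited a signal per gene, normalized counts, each a read count scaled by 1 factor for its library, which gave whole reads for 100% of positive values (within 0.1 of a read, largest distance 6.22e-05). The submitters' processing notes name cutadapt 1.18, FastQC 0.11.7, STAR 2.4.0.1 and DESeq2 1.20.0 without roles; the genome build, annotation and counting are not given in the sources used here. No column was left unused (0 columns without a sample).

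Genes averaging at least 10 in the 6 libraries were tested with limma 3.58.1 on log2(normalized count + 1), which understates changes of low genes, with a variance trend, two-sided, and Benjamini-Hochberg adjustment over 32815 genes. The 4 groups were not pooled, because spread was larger in the heated groups. Water deficit minus control was fitted on its own 6 libraries and the interaction on all 12. Alternatives were the 12-library fit, group weights, a clock index covariate, a pseudocount of 10, no filter, equal totals, no trend, leaving out each library, and edgeR 4.0.16 and DESeq2 1.42.0 on the recovered reads. The fit was also run on simulated counts. These were drawn gene by gene without the split between libraries, so they do not test how the fit handles that split.

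The members, the design and the 28 gene lists were chosen with earlier results of these data known. Lists were formed from symbols, 6 of them, and the completion and trimming of others, after symbols and first results had been seen, so no list was tested. Named genes were the 12 largest increases and 12 largest decreases among called genes that averaged at least 100 and whose groups did not overlap, each list's member with the highest mean and up to 4 called members, and the 3 largest and 3 smallest interactions; others are marked. Names came from the table or from RefSeq (Glycine_max_v4.0), which matched 96.8% of tested genes; no positions or sequences are printed. Floors (3 reads) and the 95% counting intervals cover counting error only.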

Additional observations from a re-analysis of the deposited data

Results flagged for a closer look

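In 3 of the 965 genes named, called or listed (0.311%), every water deficit library lay on one side of the controls while every combined stress library lay on the opposite side of the heat libraries, as in 204 of all 32815 genes tested (0.622%). None of the 3 passed the interaction test in limma, and none was called in either comparison. GMGLYII-6, a glyoxalase II, had an interaction of 1.64 (adjusted p = 0.391). It read 1472, 1516 and 1772 normalized counts in control, 1402, 1109 and 799 in water deficit, 1193, 1256 and 2300.3 in heat and 2855, 2843 and 4035 in combined stress. GR, of the glutathione antioxidant genes, had an interaction of 0.88 (adjusted p = 0.425), with log2 changes of -0.27 without heat and 0.61 with it. LOC100786924, the aquaporin NIP1-4, had an interaction of -1.53 (adjusted p = 0.459), with log2 changes of 0.25 without heat and -1.28 with it.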

How the results depend on the processing

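The counts of called genes moved by over 1.5 times under most alternatives. Combined stress minus heat stress gave 128 genes (85 higher, 43 lower) as reported, 1736 (795, 941) with all 12 libraries in the fit, 635 (311, 324) with group weights, 831 (403, 428) with the clock index as covariate, 2148 (934, 1214) in DESeq2, 31 (24, 7) in edgeR and 44 (31, 13) without a variance trend. Without a filter 86 were called, 25 of them lower. A pseudocount of 10 (143) and equal totals (130) stayed within 1.5 times. Leaving out 1 library gave 0 to 2786 calls, 0 to 1365 higher and 0 to 1421 lower. The share of higher calls was 66.4% in the reported fit and 45.8% with 12 libraries, 49.0% with group weights, 48.5% with the covariate, 43.5% in DESeq2, 77.4% in edgeR and 73.1% with equal totals. Water deficit minus control gave 1289 calls, 423 in the 12-library fit, 3413 in DESeq2, 1284 in edgeR and 254 to 1783 with 1 library left out. The interaction gave 0 calls in limma and edgeR, 1 with a pseudocount of 10, 261 in DESeq2, and 0 to 1614 with 1 library left out. Of the 32 named called genes, 32 remained called in DESeq2, with the covariate and without heat library 3, 31 with 12 libraries and with a pseudocount of 10, 29 with group weights, 28 with equal totals, 26 without a filter, 11 in edgeR and 10 without a trend. They numbered 0, 13 and 2 without combined library 1, 2 and 3 and 5 without heat library 1 or 2, and none changed sign in any of these fits or with a library left out. The cause of these shifts was not tested. No paired analysis was possible because the labels give no replicate numbers. With 3 libraries a group, an exact test of 1 value cannot go below p = 0.1, and changes of genes with few reads rest on counting error as well as on the spread.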
